A study of Homo sapiens with 4 samples.

Results

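The mitochondrial carriers named SLC25A were followed through the chromatin accessibility peaks of Kasumi-1 cells with and without a SETD8 knockout. Members were the peaks whose annotated gene in the authors' first deposited table carries a symbol of the form SLC25A and a number, whatever their fold change. This rule found 50 of 20556 peaks, belonging to 30 genes. Of these peaks 33 lay in promoters, defined as within 3 kb of an annotated start, and they belonged to 28 genes. The other 17 peaks lay between genes (8 peaks) or in introns (9 peaks), and SLC25A5 and SLC25A32 had only peaks of this kind. In the authors' second deposited table, 31 of the 50 peaks had an overlapping peak, 29 of them in the promoters of 26 genes.

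The assay was ATAC-seq, which uses a transposase to tag accessible DNA for sequencing, on SETD8 knockout cells (CRISPR/Cas9, 2 libraries) and sgNT cells (labelled WT, 2 libraries). Both groups were the same line, Kasumi-1, an acute myeloid leukaemia line that carries the t(8;21) fusion of RUNX1 and RUNX1T1. SETD8, now named KMT5A, is the enzyme that adds a single methyl group to lysine 20 of histone H4. The labels do not say whether the knockout cells were a clone or a pool, or how long after editing they were taken.

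Carriers of the SLC25 family are proteins of the inner mitochondrial membrane, with a few in the outer membrane or in peroxisomes, and most exchange a solute of the matrix for one of the intermembrane space. They import ADP and phosphate for ATP synthesis, move aspartate and glutamate for the malate-aspartate shuttle, and bring in iron, glutathione, coenzymes, nucleotides and acylcarnitines. They are encoded in the nucleus and made in the cytosol, then inserted into the mitochondrion. Accessibility is not expression, and no RNA measurement was used here.

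The promoter sequences of 4 members are shown because they stood at the ends of the order of the family's promoters over both tables, which is given with the values below. SLC25A15 and SLC25A51 had the lowest mean fold changes relative to the median peak, and SLC25A39 and SLC25A3 the highest, among promoters whose RefSeq start lies inside the peak. The sequences are from RefSeq (GRCh38.p14), 5′ to 3′ on the strand of the gene, from 250 bases before the start to 50 after it. They are chr13:40789361-40789660 (+) for SLC25A15, chr9:37904078-37904377 (-) for SLC25A51, chr17:44324774-44325073 (-) for SLC25A39 and chr12:98593436-98593735 (+) for SLC25A3. Capitals mark the SP/KLF box GGGCGG, the CCAAT box CCAAT and the YY1 motif AAGATGGC on either strand. In SLC25A51, 2 overlapping SP/KLF boxes make 1 run of capitals.
SLC25A15: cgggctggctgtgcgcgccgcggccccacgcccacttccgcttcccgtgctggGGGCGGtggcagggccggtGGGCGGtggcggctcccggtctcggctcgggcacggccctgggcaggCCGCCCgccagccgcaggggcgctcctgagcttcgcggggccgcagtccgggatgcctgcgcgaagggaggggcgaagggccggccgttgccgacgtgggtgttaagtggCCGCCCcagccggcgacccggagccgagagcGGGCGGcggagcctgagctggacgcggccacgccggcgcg
SLC25A51: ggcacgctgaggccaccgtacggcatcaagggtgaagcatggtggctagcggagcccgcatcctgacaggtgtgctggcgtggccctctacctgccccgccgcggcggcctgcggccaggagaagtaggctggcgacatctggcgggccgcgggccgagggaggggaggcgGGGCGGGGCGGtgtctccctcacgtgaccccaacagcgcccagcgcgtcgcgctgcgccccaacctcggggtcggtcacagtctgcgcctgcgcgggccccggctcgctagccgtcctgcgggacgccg
SLC25A39: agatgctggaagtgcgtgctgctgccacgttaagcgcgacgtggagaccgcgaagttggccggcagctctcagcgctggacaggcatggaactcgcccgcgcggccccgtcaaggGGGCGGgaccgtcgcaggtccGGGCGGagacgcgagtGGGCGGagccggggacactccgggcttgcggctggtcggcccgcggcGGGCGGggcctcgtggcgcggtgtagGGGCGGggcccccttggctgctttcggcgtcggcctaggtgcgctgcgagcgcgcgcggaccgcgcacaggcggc
SLC25A3: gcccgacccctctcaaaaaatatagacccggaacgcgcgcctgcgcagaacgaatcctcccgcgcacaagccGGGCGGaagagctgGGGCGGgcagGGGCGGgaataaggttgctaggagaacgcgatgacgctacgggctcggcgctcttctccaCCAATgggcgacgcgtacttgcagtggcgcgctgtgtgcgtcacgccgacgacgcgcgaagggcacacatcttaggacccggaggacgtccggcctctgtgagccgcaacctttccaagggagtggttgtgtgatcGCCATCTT

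The letters did not separate the ends of the order. SLC25A15 at the low end and SLC25A39 at the high end each held 5 SP/KLF boxes and neither a CCAAT box nor a YY1 motif, with a GC content of 80% and 75.3%. SLC25A51 held 2 SP/KLF boxes, and SLC25A3 held 3, beside 1 CCAAT box and 1 YY1 motif. Of the 28 genes with a promoter peak, 24 matched a RefSeq promoter, and SLC25A16, SLC25A35 and SLC25A37 were among those that did not. Among these 24 promoters, 75% held the SP/KLF box, against 74.1% of the 8955 RefSeq promoters of any gene whose start lay in a peak of the first table. The CCAAT box was in 54.2% of the SLC25 promoters (13 of 24), against 38.8% of the promoters in peaks, and SLC25A42 alone held 6. The NRF1 core GCGCATGC, the site family of a regulator of many nuclear genes for mitochondrial proteins, was found in 0% of the SLC25 windows, against 6.88% of the promoters in peaks. The ETS core CCGGAAG was in 20.8% against 22.9%, the CRE core TGACGT in 16.7% against 13.8%, and the YY1 motif in 8.33% against 6.05%. Each motif was searched as these exact letters on both strands, and a match is not a bound site. The median GC content was 67.7% in the SLC25 promoters and 66% in the promoters in peaks, with 27 CpG in the median promoter of each set.

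Values came from 2 tables of peaks in hg38 that the authors scaled separately. The first held 20556 peaks and named no library, and it is not stated which libraries entered it. The second held 13577 peaks and gave the level of each peak in the knockout library and the sgNT library of replicate 2, with 2091322 and 5345251 reads in peaks. Because 1 library stands for each group in the second table, its differences have no replicate check, and its intervals below cover counting error only. The median log2 fold change of all peaks, knockout over sgNT, was -0.87 (first table) and -1.23 (second table). Such a shift of nearly all peaks moves with the scaling of the libraries, and the cause was not tested. Each value below is therefore also read against the median of its own table, and the difference is called the centred fold change. No peak of either table passed the authors' adjusted p of 0.05, which is 0% of 20556 and 0% of 13577 peaks, and the lowest adjusted p was 0.731 and 0.578. The accessibility of the KMT5A promoter is no check of the knockout, and its centred fold changes were 0.05 and -0.22. Of 10 myeloid marker genes 7 had a promoter peak in both tables, among them KIT, SPI1 and CEBPA, and no promoter peak was credited to MPO, CD33 or RUNX1T1. Of 8 markers of other cell types 3 (COL1A1, EPCAM and PECAM1) had one in the first table, and 0 did in the second.

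The SLC25 promoters as a group had the same median as all promoters in the first table. All 33 SLC25 promoter peaks had a fold change below 0 in the authors' first deposited table, with a median of -0.92 and a range of -2.32 to -0.24, but relative to the table median 17 were lower and 16 higher. The median of all 11787 promoter peaks was also -0.92. A fold change of -1 or lower, on the log2 scale, was found in 14 of 33 SLC25 promoter peaks (42.4%), against 42% of all promoter peaks. Of the 33 peaks, 2 had an unadjusted p under 0.05 in the authors' first deposited table, against 86 of all 11787 promoter peaks. Over promoter and other peaks together the share was 1.6% (329 of 20556). Both SLC25 peaks are the peaks 2 to 3 kb from a start described with their genes. The median SLC25 promoter peak had 290.0 normalised reads, against 214 for all promoter peaks.

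In the second table the median of the family's promoters lay below that of all promoters. All 29 SLC25 promoter peaks were below 0, from -1.88 to -0.40 with a median of -1.36, against a median of -1.26 over all 8994 promoter peaks. Relative to the table median 21 were lower and 8 higher (72.4% lower, against 52.9% of all promoter peaks). A fold change of -1 or lower was found in 26 of 29 (89.7%), against 82.8% of all promoter peaks. With the trend over peak level and over 5 Mb regions removed, 16 were lower and 11 higher of the 27 with a regional value (59.3%, against 49.5%), and the median was -0.07. Of the 29 peaks, 13 differed from the table median by more than counting error, 9 of them lower and 4 higher, in that the exact 95% counting interval of the fold change did not hold it. Over all promoter peaks 33.5% (3017 of 8994) had such an interval.

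**Figure D1:**
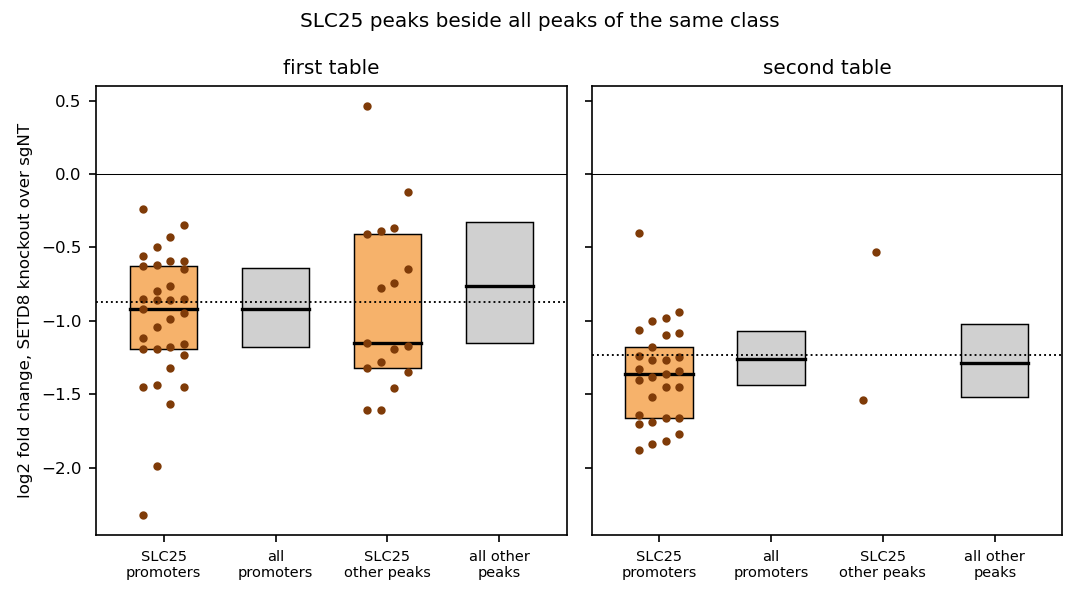
Log2 fold change of accessibility, SETD8 knockout over sgNT, for SLC25 peaks (points, with box from the first to the third quartile and a line at the median) beside all peaks of the same class (grey boxes), in the first and the second table. Dotted lines mark the median of all peaks, -0.87 and -1.23. The medians of SLC25 promoters and all promoters coincide at -0.92 in the first table and are -1.36 and -1.26 in the second.

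Adenine nucleotide and phosphate carriers supply the ATP synthase and return its product. Of this group 5 genes had a promoter peak, with a median fold change over genes of -0.85 by the authors' first deposited table and -1.45 by the second. SLC25A3, the phosphate carrier, had 294 knockout reads and 709 normalised reads in the sgNT library, a log2 fold change of -1.27 (95% counting interval -1.47 to -1.08). In the authors' first deposited table it was -0.43, so it lay 0.44 above the median there and 0.04 below it (centred -0.04) in the second. SLC25A4, an ADP/ATP translocase of heart and muscle, had 127 reads in the knockout library and 347 in the sgNT library, a fold change of -1.45 (-1.75 to -1.16). Its value in the authors' first deposited table was -1.16, lower than the table median by about as much as in the second (centred -0.29 and -0.22).

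The ATP-Mg/phosphate carriers, which respond to calcium and set the adenine nucleotide content of the matrix, had unlike values. SLC25A23 had 298 reads in the knockout library and 576 in the sgNT library, a fold change of -0.94 (-1.15 to -0.75), above the table median by more than counting error. Its value of -0.85 in the authors' first deposited table was close to the median (centred 0.02). SLC25A24 had 107 and 292 reads in the knockout and sgNT libraries, a fold change of -1.45 (-1.78 to -1.13), and -0.62 in the authors' first deposited table, so its centred values had opposite signs (0.25 in the first and -0.22 in the second).

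SLC25A25, the third of these carriers, had 3 promoter peaks, and each was lower than the table median in both tables. The strongest, chr9:128067205-128068417, also holds the start of NAIF1, a nuclear protein gene, so its reads cannot be assigned to 1 gene. It had 300 reads in the knockout library and 949 in the sgNT library, a fold change of -1.66 (-1.85 to -1.47), and -1.45 in the authors' first deposited table. The peak over the RefSeq start of SLC25A25 itself, chr9:128098061-128098723, had 175 and 568 reads in the knockout and sgNT libraries, a fold change of -1.70 (-1.95 to -1.45), and -1.12 in the authors' first deposited table. The peak 2786 bp from its assigned start, chr9:128094250-128094760, had the lowest first-table value of all SLC25 peaks, -2.32 with an unadjusted p of 0.0399 and an adjusted p of 0.731 in the authors' first deposited table. In the second table it had 105 and 370 reads in the knockout and sgNT libraries, a fold change of -1.82 (-2.14 to -1.50). Values below -1.9 were found in 2.59% of the 502 peaks at 2 to 3 kb from a start, and in 1.21% of the 10701 within 1 kb, in the authors' first deposited table. The neighbourhood was low as well: after the level trend was removed, the other peaks of the 5 Mb bin had medians of -0.25 (first table) and -0.325 (second table). With this taken off, the 3 peaks were at -0.28, -1.08 and 0.135 in the first table (strongest, 2 to 3 kb, own start), and at -0.045, -0.225 and -0.095 in the second.

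Amino acid carriers were represented by 6 genes, with a median over genes of -0.81 by the authors' first deposited table and -1.35 by the second. SLC25A12 and SLC25A13 are the aspartate/glutamate carriers of the malate-aspartate shuttle. SLC25A12 had 69 reads in the knockout library and 236 in the sgNT library, a fold change of -1.77 (-2.18 to -1.39), lower than the table median by more than counting error. In the authors' first deposited table it was at the median (-0.85, centred 0.02). SLC25A13 had 118 and 300.2 reads in the knockout and sgNT libraries, a fold change of -1.34 (-1.66 to -1.04), and -1.19 in the authors' first deposited table. A further SLC25A13 peak, chr7:96118572-96119201, 2797 bp from a start, was at -1.99 with an unadjusted p of 0.0376 and an adjusted p of 0.731 in the authors' first deposited table. It was a weak peak of 77.2 normalised reads and had no partner in the second table. The annotated start that makes it a promoter peak is not the RefSeq start of SLC25A13. That start lies in the distant peak chr7:96321225-96322274, whose values are given above.

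SLC25A15, the ornithine carrier that links the urea cycle to the matrix, had the lowest second-table fold change of the family. It had 54 reads in the knockout library and 199 in the sgNT library, a fold change of -1.88 (-2.34 to -1.45), and -1.44 in the authors' first deposited table. Both values were lower than their table medians by a like amount, with centred values of -0.57 and -0.65. SLC25A38, which imports glycine for haem synthesis, and SLC25A44, a carrier of branched-chain amino acids, had intervals that held the table median, at -1.18 (-1.37 to -0.99) and -1.36 (-1.64 to -1.10). In the authors' first deposited table they were at -0.76 and -0.63. The SLC25A38 peak also holds the start of LOC105377644, so its reads cannot be assigned to 1 gene. SLC25A29, a carrier of basic amino acids, had its strongest peak at -0.35 in the authors' first deposited table, with no partner in the second. Its weaker promoter peak, with 62 reads in the knockout library and 81.6 in the sgNT library, was the highest SLC25 promoter peak of the second table at -0.40 (-0.89 to 0.09), and the authors' first deposited table had it at -0.59.

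Of the carriers of di- and tricarboxylates, SLC25A10, the dicarboxylate carrier, was the gene with a promoter peak under the rule. Its strongest promoter peak had 231 reads in the knockout library and 580.0 in the sgNT library, a fold change of -1.33 (-1.55 to -1.11), and -0.86 in the authors' first deposited table. A second promoter peak credited to it, chr17:81702920-81703638, holds the start of MRPL12, a mitochondrial ribosomal protein gene, and was at -1.57 in the authors' first deposited table and -1.38 (-1.65 to -1.13) in the second.

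Carriers of cofactors, nucleotides and carnitine were the largest group, with 8 genes and a median over genes of -0.96 by the authors' first deposited table and -1.25 by the second. SLC25A51, which imports NAD, had 139 and 440 reads in the knockout and sgNT libraries, a fold change of -1.66 (-1.94 to -1.39), and -1.32 in the authors' first deposited table. These values are lower than the table medians by nearly equal amounts, with centred values of -0.45 and -0.43.

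The pyrimidine nucleotide carriers SLC25A33 and SLC25A36 and the S-adenosylmethionine carrier SLC25A26 were above the table median in the second table. SLC25A33 had 260 reads in the knockout library and 519 in the sgNT library, a fold change of -1 (-1.22 to -0.78), and -0.80 in the authors' first deposited table. SLC25A26 had 211 and 446 reads in the knockout and sgNT libraries, a fold change of -1.08 (-1.32 to -0.84), an interval that holds the table median, and -1.04 in the authors' first deposited table. SLC25A36 was at -1.10 (-1.31 to -0.91), an interval that also holds the table median, and at -0.99 in the authors' first deposited table. In that first table SLC25A26 and SLC25A36 were below the median (centred -0.17 and -0.12), and SLC25A33 was above it (0.07). SLC25A20, the carnitine/acylcarnitine carrier that brings fatty acids to oxidation, had 151 and 365 reads in the knockout and sgNT libraries, a fold change of -1.27 (-1.55 to -1), and -0.59 in the authors' first deposited table. SLC25A42, a carrier of coenzyme A, and SLC25A16 were at -1.25 (-1.41 to -1.09) and -1.24 (-1.43 to -1.06), with -0.65 and -0.92 in the authors' first deposited table. The SLC25A42 peak also holds the start of LOC124904655, so its reads cannot be assigned to 1 gene.

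Iron and glutathione carriers gave 3 genes whose order differed between the tables. SLC25A37 and SLC25A28, mitoferrins that bring iron into the matrix, were on opposite sides in the second table. SLC25A28 had 228 reads in the knockout library and 709 in the sgNT library, a fold change of -1.64 (-1.86 to -1.42), lower than the table median by more than counting error. In the authors' first deposited table it was at -0.95 (centred -0.08). This SLC25A28 peak also holds the start of SLC25A28-DT, so its reads cannot be assigned to 1 gene. SLC25A37 had 272 and 541 reads in the knockout and sgNT libraries, a fold change of -0.98 (-1.21 to -0.78), above the median of the second table, while its value of -1.23 in the authors' first deposited table was below the median there (centred -0.36). SLC25A39, which imports glutathione, had 184 and 481 reads in the knockout and sgNT libraries, a fold change of -1.40 (-1.64 to -1.14). It was at -0.24 in the authors' first deposited table, the highest of all SLC25 promoter peaks, with centred values of 0.63 (first table) and -0.17 (second table). The other peaks of its 5 Mb bin were low in both tables (medians -0.27 and -0.32).

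The remaining members have no settled substrate or are named after uncoupling proteins. SLC25A45 had 242 reads in the knockout library and 787 in the sgNT library, a fold change of -1.69 (-1.91 to -1.49), lower than the table median by more than counting error, and -1.19 in the authors' first deposited table. SLC25A35 had 158 and 329 reads in the knockout and sgNT libraries, a fold change of -1.06 (-1.34 to -0.78), and -0.50 in the authors' first deposited table. It was above both medians, though its interval in the second table held the median there. SLC25A53 was at -1.52 (-1.92 to -1.14), an interval that held the table median, and at -0.86 in the authors' first deposited table. SLC25A43 and SLC25A14, a brain carrier of the uncoupling type, had no partner peak in the second table and were at -1.45 and -0.56 in the authors' first deposited table.

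**Figure D2:**
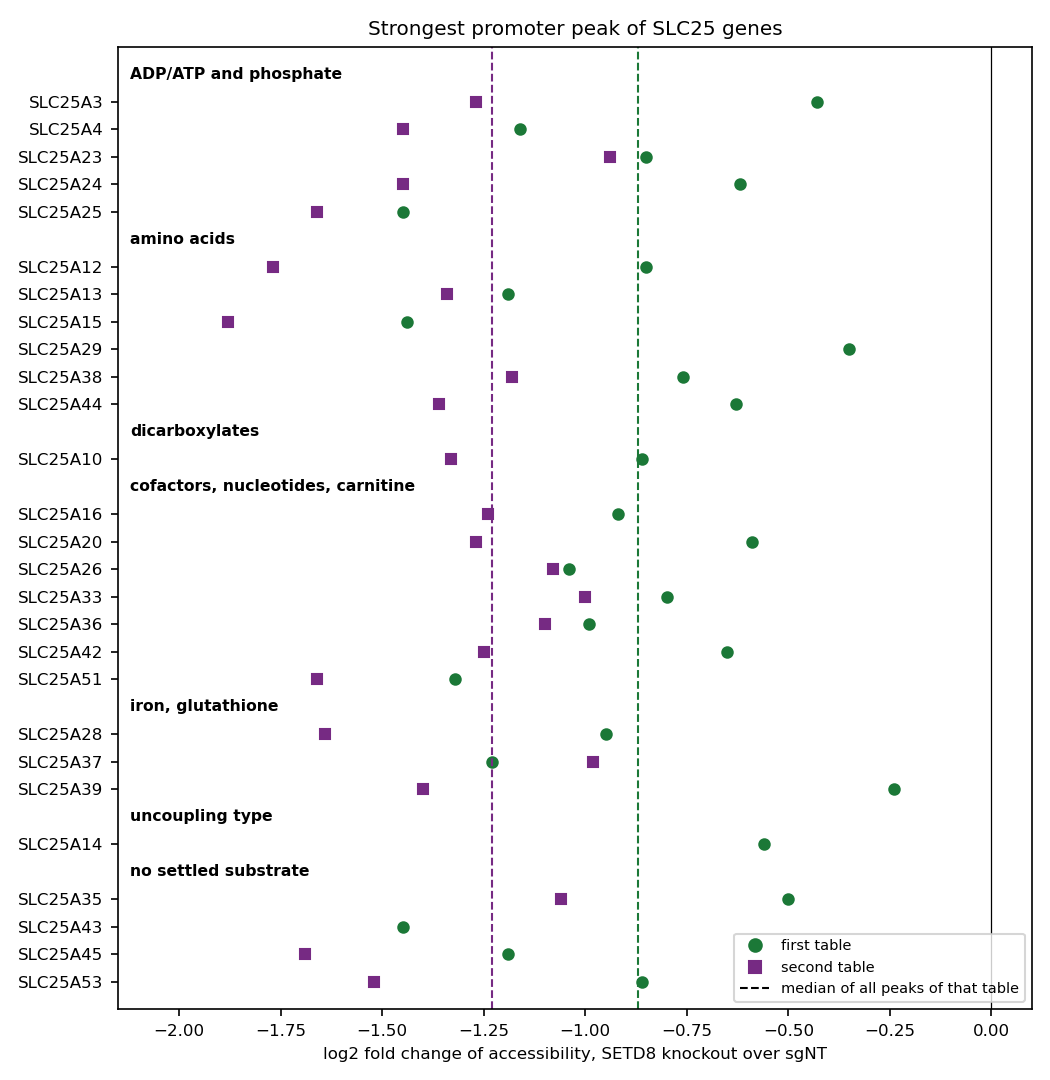
Log2 fold change of accessibility, SETD8 knockout over sgNT, of the strongest promoter peak of 27 SLC25 genes, grouped by what the carrier moves, in the first table (circles) and the second (squares). Dashed lines mark the median of all peaks of each table, -0.87 and -1.23. SLC25A15, SLC25A25, SLC25A45 and SLC25A51 are among the genes left of both medians, and SLC25A35 is among those right of both.

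The order of the promoters by their mean centred fold change over both tables is a description of 25 genes whose strongest promoter peak joined. Its low end held SLC25A15, SLC25A25, SLC25A51 and SLC25A45, and its high end SLC25A35, SLC25A39, SLC25A3, SLC25A23 and SLC25A33. The 4 genes named at the low end were below the median in both tables, and in the second table beyond counting error. At the high end SLC25A39 and SLC25A3 were above the median in the first table and slightly below it in the second. Whether the tables share libraries is not stated, so agreement between them is not independent support. A fit of limma with each table as a replicate block gave an adjusted p (Benjamini-Hochberg) under 0.05 to 29 of 31 joined SLC25 peaks as deposited, against 96.7% of all 11117 joined peaks. Centred on the table medians it did so for 0 of 31, against 0.009% of all joined peaks. These counts depend on the prior variance of the fit, and were also made with a trended and a robust prior, chosen after seeing the data. As deposited both called 29 of 31, against 91.1% and 96.3% of all joined peaks, and centred they called 0 and 1, against 0% and 1.27%.

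**Figure D3:**
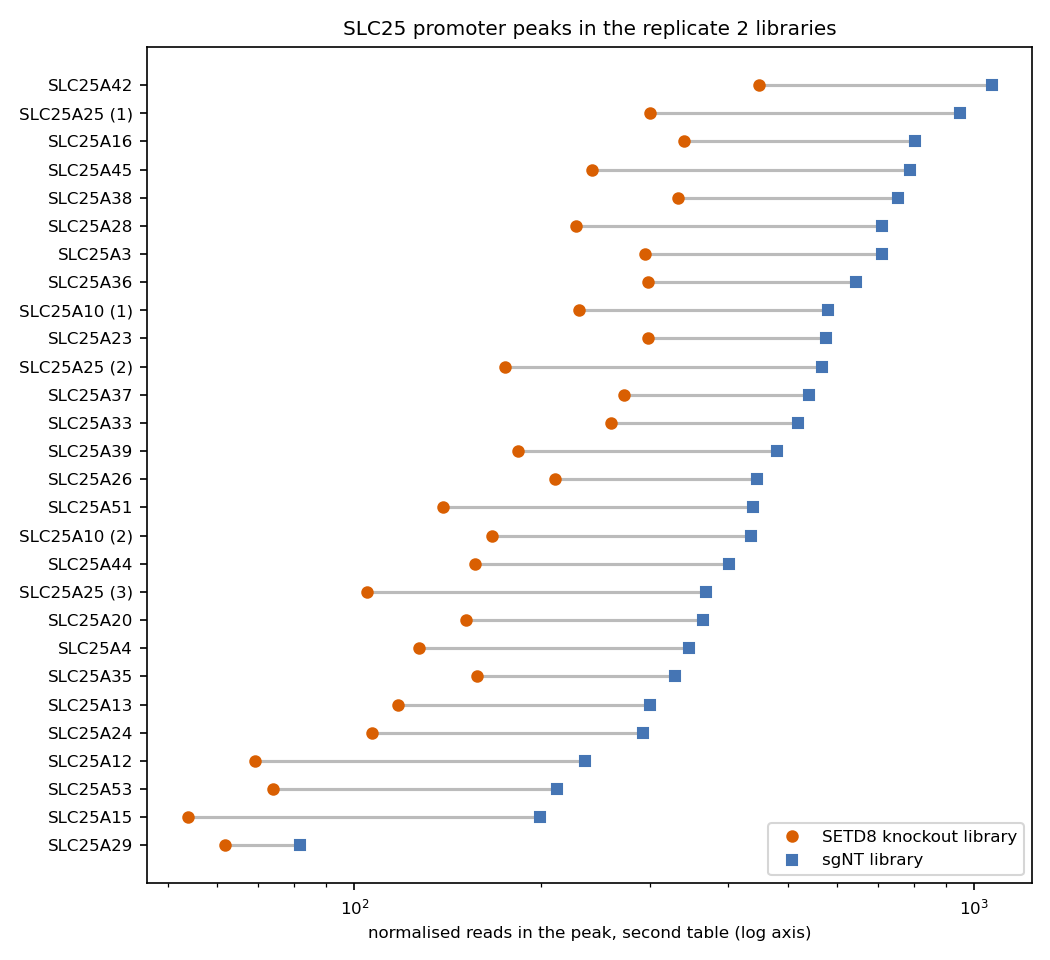
Normalised reads in 28 SLC25 promoter peaks of the second table, on a log axis, in the SETD8 knockout library (circles) and the sgNT library (squares) of replicate 2, ordered by the sgNT level. The knockout value lies left of the sgNT value at every peak drawn, from 62 against 81.6 at SLC25A29 to 449 against 1067 at SLC25A42. Numbers in brackets tell apart several peaks of 1 gene.

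**Figure D4:**
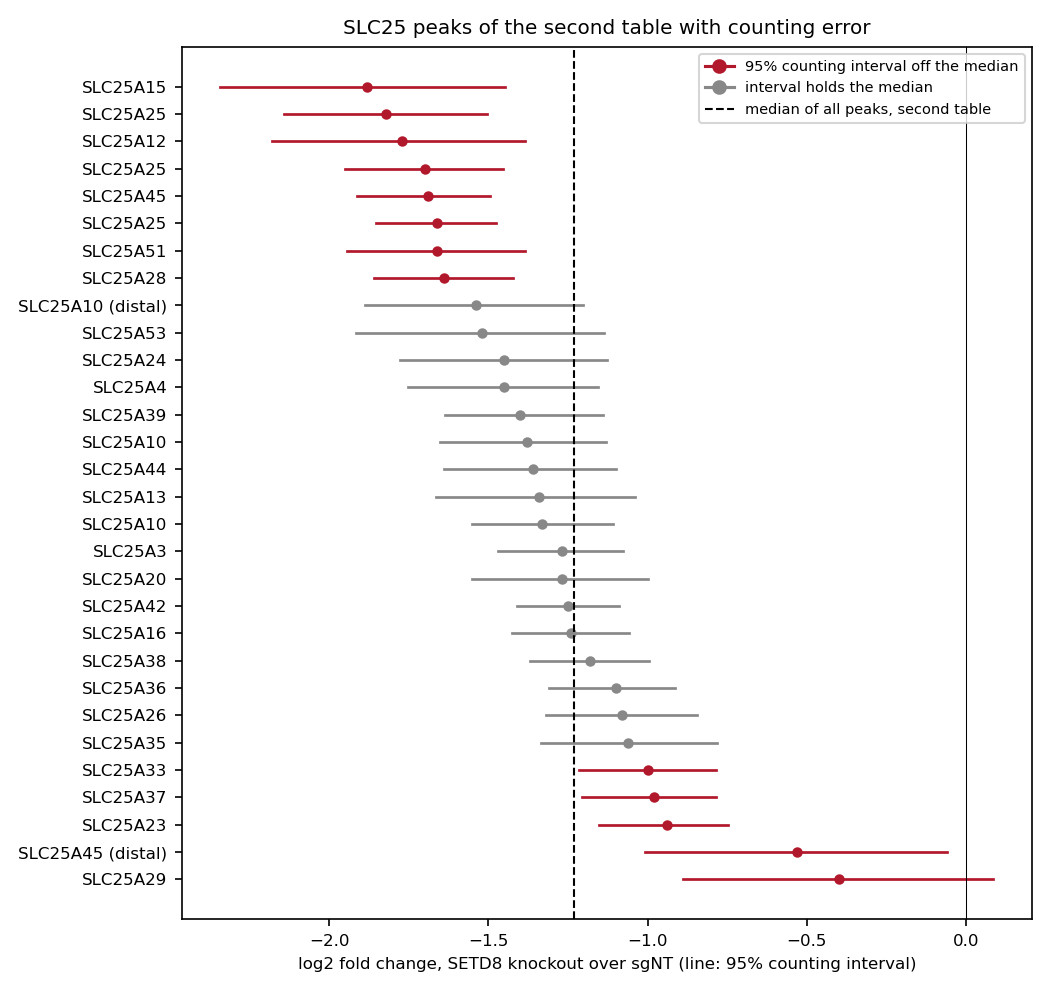
Log2 fold change of 30 joined SLC25 peaks in the second table, SETD8 knockout over sgNT, with exact 95% counting intervals (lines) and the median of all peaks, -1.23 (dashed). The intervals of 13 of these (dark red) do not hold the median, 8 of them below it, from SLC25A15 to SLC25A28, and 5 above it. The intervals leave out variation between cultures.

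Peaks of SLC25 genes outside promoters had a lower median than all non-promoter peaks in the first table, over few and weak peaks. Their median was -1.15 in the authors' first deposited table, with a range of -1.61 to 0.46, against -0.76 for all 8769 peaks of that kind. A fold change of -1 or lower was found in 9 of 17 (52.9%), against 34.8% of those peaks. Relative to the table median 9 were lower and 8 higher (52.9% lower, against 42.6% of all non-promoter peaks). With level and regional trends removed 12 were lower and 5 higher (70.6% lower, against 51.1%), with a median of -0.16. Of these peaks 0 of 17 had an unadjusted p under 0.05 in the authors' first deposited table, against 243 of all 8769 non-promoter peaks. The lowest unadjusted p among the 17 was 0.0551. The median peak had 79.3 normalised reads, against 81.0 for all non-promoter peaks. Peaks in the same gene or intron are neighbours and not independent measurements.

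The lowest of them were an intronic SLC25A12 peak and a peak 84719 bp from SLC25A24, both at -1.61 in the authors' first deposited table. A peak upstream of SLC25A33 was at -1.46, an intronic peak credited to SLC25A45 at -1.35, and a peak in an intron of SHB credited to SLC25A51 at -1.32, in the authors' first deposited table. Introns of SHB held 2 more peaks credited to SLC25A51, at -1.19 and -1.17 in the authors' first deposited table, close to the -1.32 of the SLC25A51 promoter. At the other end a peak 7333 bp from SLC25A42, of 56.9 normalised reads, was the single SLC25 peak above 0, at 0.46 with an adjusted p of 0.753 in the authors' first deposited table. Distal peaks of SLC25A35, SLC25A36 and SLC25A45 were at -0.12, -0.39 and -0.41, and a peak in an intron of RIMS2 credited to SLC25A32, the carrier of folate, at -0.37, in the authors' first deposited table. That SLC25A32 peak was weak, with 32 normalised reads. The other SLC25A32 peak, also in an intron of RIMS2, had 94.4 and was at -1.28 there. The peak credited to SLC25A5 lay 30658 bp from its start and was at -0.74 in the authors' first deposited table. Nearest genes need not be the targets of such peaks.

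A partner in the second table was found for 2 of these peaks. The distal SLC25A10 peak had 95 reads in the knockout library and 276 in the sgNT library, a fold change of -1.54 (-1.89 to -1.20). The distal SLC25A45 peak had 63 and 91.1 reads in the knockout and sgNT libraries, a fold change of -0.53 (-1.01 to -0.06), above the table median by more than counting error, while the promoter of the same gene was below it. So 1 of 2 was lower by at least 1, against 77% of all other peaks, and 1 of 2 had an interval that did not hold the median, against 31.9%.

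The annotation credits each peak to 1 gene, and some carriers fall outside the rule for that reason. Of 40 SLC25A genes with a RefSeq promoter entry, 4 had their start in a first-table peak credited to a neighbour. SLC25A5, the main ADP/ATP translocase of dividing cells, starts in a peak credited to its antisense neighbour SLC25A5-AS1, and reads of the pair cannot be told apart in a peak that covers both. That peak had 187 reads in the knockout library and 478 in the sgNT library, a fold change of -1.35 (-1.60 to -1.11), and -1.82 in the authors' first deposited table. SLC25A40, a carrier linked to glutathione, starts in the DBF4 peak, which had 158 and 512 reads in the knockout and sgNT libraries, a fold change of -1.70 (-1.96 to -1.44), and -0.83 in the authors' first deposited table. SLC25A11, the oxoglutarate carrier, and SLC25A46, an outer membrane protein, start in the peaks of RNF167 and TMEM232, at -0.69 and -1.06 by the authors' first deposited table and at -1.29 and -1.30 in the second.

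Another 3 carriers had no peak under the rule and a peak over their start in the second table. SLC25A6, an ADP/ATP translocase, had 276 reads in the knockout library and 495 in the sgNT library, a fold change of -0.83 (-1.06 to -0.63), above the table median by more than counting error. SLC25A1, the citrate carrier, had 133 and 309 reads in the knockout and sgNT libraries, a fold change of -1.22 (-1.51 to -0.92). SLC25A17, a carrier of peroxisomes, had 111 and 317 reads in the knockout and sgNT libraries, a fold change of -1.52 (-1.84 to -1.20). The ADP/ATP translocases SLC25A4, SLC25A5 and SLC25A6 thus had second-table values of -1.45, -1.35 and -0.83. For 9 further genes no SLC25 peak and no peak over the start was found in either table, namely SLC25A18, SLC25A21, SLC25A22, SLC25A27, SLC25A31, SLC25A34, SLC25A47, SLC25A48 and SLC25A52.

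Some SLC25 promoter peaks lay in regions whose other peaks were low, though not all of these members were low themselves. SLC25A39 lay in such a bin in the first table (-0.27) with a centred fold change of 0.63. Of the SLC25 promoter peaks with a regional value, 8 of 33 lay in 5 Mb bins whose other peaks had a level-adjusted median of -0.2 or lower in the first table (24.2%, against 12.3% of all promoter peaks). In the second table this was 7 of 27 (25.9%, against 10.3%). These are few places, since SLC25A25 gives 3 of the peaks and SLC25A10 gives 2 in both tables. The part of position in the family's values was not tested.

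Genes that work beside the carriers gave a comparison outside the family, from lists drawn up with earlier results of these data known. Of 61 listed partner genes 44 had a promoter peak in the first table. The median fold change of the strongest promoter peak was -0.86 for the 28 SLC25 genes, against -0.97 for the 44 partners and -0.93 for all 10187 genes, in the authors' first deposited table. A fold change of -1 or lower was found in 10 of 28 SLC25 genes (35.7%), against 20 of 44 partners (45.5%) and 43.4% of all genes. The second table gave 23 of 26 SLC25 genes (88.5%), against 33 of 42 partners (78.6%) and 83.1% of all genes. In the second table the medians were -1.34 for 26 SLC25 genes, against -1.22 for 42 partners and -1.25 for all 8379 genes. In neither table was a promoter of the SLC25 genes or their partners higher by at least 1. Of all genes 4 of 10187 were so in the first table and 0 of 8379 in the second.

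Other mitochondrial carriers and channels were measured in 19 of 24 genes, with medians of -1.13 by the authors' first deposited table and -1.19 by the second, and 11 and 17 of them at -1 or lower, beside the 43.4% and 83.1% of all genes. MICU2, a calcium-sensing regulator of the mitochondrial calcium uniporter, had 91 reads in the knockout library and 338 in the sgNT library of the second table, at -1.89. Its value in the authors' first deposited table was -1.28. The pyruvate carrier subunits MPC1 and MPC2 were at -1.23 and -1.04 in the second table, and at -1.22 and -0.52 in the authors' first deposited table. Enzymes of the malate-aspartate shuttle and of citrate metabolism had medians of -0.99 (10 of 11 genes) by the authors' first deposited table and -1.40 (9 of 11 genes) by the second. There MDH1, a malate dehydrogenase, had 221 and 704 reads in the knockout and sgNT libraries, at -1.67, and GOT1, an aspartate aminotransferase, 119 and 349.7, at -1.55. By the authors' first deposited table MDH1 was at -1.01, and GOT1 was close to the median at -0.84 (centred 0.03).

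The carnitine shuttle genes CPT1A, CPT2 and CRAT were at -1.53, -1.44 and -1.58 in the second table, and at -1.50, -0.94 and -0.97 in the authors' first deposited table, so all 3 lay below both medians. Iron-sulphur and haem genes were measured in 6 of 10, with medians of -0.77 by the authors' first deposited table and -0.95 by the second. Of these, 3 of 6 lay above the first table's median and 5 of 6 above the second's. Of all promoter peaks 5289 of 11787 and 4123 of 8994 lay above those medians. In the second table LYRM4, a subunit of the iron-sulphur assembly complex, had 83 reads in the knockout library and 91.1 in the sgNT library, at -0.13. ISCU, the scaffold protein, had 282 and 495 there, at -0.80. By the authors' first deposited table LYRM4 was slightly below the median at -0.96 (centred -0.09), and ISCU above it at -0.57. UCP2, MTCH1 and MTCH2, relatives of the family under other names, were at -1.21, -1 and -0.98 in the second table, all above its median. By the authors' first deposited table they were at -0.74, -0.44 and -0.99, with MTCH2 below the median. Of a list of 6 adenylate and creatine kinases, 3 were measured, with a median of -0.71 by the authors' first deposited table, and 2 of 6 in the second, among them AK4 at -0.72.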

How the data were processed

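ATAC-seq libraries of Kasumi-1 cells (2 SETD8 knockout, 2 sgNT) were made with a one-step kit and sequenced in pairs, per the labels' protocols. Tools named without order or settings in the submitters' processing notes are MACS2 2.1.2, ChIPseeker, Bowtie2, cutadapt, SAMtools and deepTools, and the build is hg38. Not given in the sources used here are the shifting of reads for the transposase, duplicate removal and scaling. The authors deposited 2 tables of peaks, each with a mean level on the log2 scale, a log2 fold change, a p-value and an adjusted p-value. Per the file headers, the second also gives the log2 level of the knockout and sgNT libraries numbered 2. In the first, columns were identified by order and range, and 2 further columns that name no library or group were not used. That separate replicate cultures were grown is not stated.

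Peaks of the 2 tables were joined by their largest overlap of at least 1 bp, each once, and 11117 joined peaks carried the first table's annotation. In the second table the deposited log2 levels were whole reads in the knockout library, and reads times 0.918 in the sgNT library, for 100% of 401 and 170 weak values (within 0.005). From them came reads in peaks and exact 95% counting intervals of the fold change (a conditional binomial, Clopper-Pearson), which cover counting error only, as reads carry no molecular identifiers. The planned tests on counts of all 4 libraries were replaced by the authors' adjusted p-values, because such counts were not used here. The level trend was the median of 20 bins by level, and the regional trend the median of the other peaks of a 5 Mb bin with at least 10. A promoter stands for its gene by its strongest peak.

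Genes described in full were those among the 5 highest or 5 lowest centred values of either table, with SLC25A3, SLC25A4, SLC25A5, SLC25A6, SLC25A12, SLC25A13, SLC25A28 and SLC25A37 whatever their values, and the 5 highest and 5 lowest peaks outside promoters. Some genes that the rule names are not reported here. Partner genes were named after their values were seen. The members, rules and lists were chosen with earlier results of these data known. Alternatives covered the fold size, threshold, level filter, scaling, trends, overlap, promoter width and interval. Another was a fit of limma 3.58.1 (R 4.3.3) with the 2 tables as replicates. That fit was tested on simulated data with independent noise and planted shifts larger than any SLC25 centred mean. The simulation therefore does not show whether changes of the size seen here would be found. Python 3.11.15 with numpy 2.4.6, pandas 2.3.3, scipy 1.17.1 and matplotlib 3.10.9 was used.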

Additional observations from a re-analysis of the deposited data

How the results depend on the processing

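The counts and medians of SLC25 peaks depend on the scaling between libraries. Centred on the table median, SLC25 peaks lower by at least 1 numbered 2 promoter and 0 other peaks in the first table and 0 and 0 in the second, with medians of -0.05, -0.28, -0.13 and 0.195. With the level trend removed the counts were 2, 1, 0 and 0 and the medians 0, -0.21, -0.1 and 0.11, and with the regional trend removed as well 2, 2, 0 and 0 and 0.02, -0.16, -0.07 and 0.2025. Scaled to reads in peaks, the second table gave 0 promoter and 0 other peaks. The medians of promoters in the first table and of other peaks in the second thus changed sign. A limit of 1.5-fold gave 28 promoter peaks in the first table. A limit of 1.5 on the log2 scale gave 3 promoter and 2 other peaks there and 10 promoter peaks in the second. Shares of all peaks are not given for the limits, filters and scales of this paragraph. These counts therefore cannot tell SLC25 peaks apart from other peaks. At or above the median level, 3 other peaks of the first table were lower by at least 1, and neither of the second table remained, so that setting gave no value there. An unadjusted p of 0.05 called 2 promoter peaks of the first table, against 86 of all its 11787 promoter peaks. The other 27 summary values changed little, overlap, promoter width, 99% intervals (12 peaks in place of 14) and the strongest peak per gene included.

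The limma fit treats the 2 tables as independent replicates from different libraries, which is not stated. It called 29 of 31 SLC25 peaks as deposited and 0 centred. With a trended or a robust prior, chosen after seeing the data, it called 29 and 29 as deposited, and centred 0 and 1, the SLC25A25 peak at -2.32, of 0 and 141 joined peaks called in all. Leaving out each library in turn was not run, because levels of all 4 libraries were not used here. With 184 knockout reads in the median promoter peak of the second table, the intervals of all but 13 of 29 held the table median, and for those peaks a difference from it was not detectable at this depth.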
